A study of Homo sapiens with 2 samples.

Results

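S100 proteins are small proteins that bind calcium through a pair of EF-hand motifs, work mostly as dimers, and act inside cells on annexins, myosin and other targets. In stratified epithelia such as oral mucosa several of them are made in keratinocytes, and S100A7, S100A8 and S100A9 are known for induction in stressed or inflamed epithelium, where the secreted proteins act as antimicrobial and alarm signals. Most of the genes lie together on chromosome 1 around the epidermal differentiation complex, whereas S100P lies on chromosome 4. The 10 genes described here (S100A2, S100A4, S100A6, S100A7, S100A8, S100A9, S100A10, S100A11, S100A14 and S100P) were taken by their symbols in the gene name column, 10 of the 43317 gene names on the array. They were read by 11 probes with 1 spot each, since S100A11 had 2 probes.

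The cells were Ca9-22, an established oral squamous cell carcinoma line. One group carried a DLEU1 vector, a lentivirus that delivers the long noncoding RNA DLEU1, and the other a control vector, and both were kept in Blasticidin for 2 weeks to select infected cells. Total RNA of each group was labelled with Cy3 and read on 1 Agilent expression array. With 1 array per group there was no replicate, so no test was made and every difference compares these 2 RNA samples, not the conditions.

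A level is the log2 signal of a probe minus the 75th percentile of its array, and a difference is the level with the DLEU1 vector minus that with the control vector. A probe was detected where its spot was well above background, which held for 47.6% of 58201 probes in control vector cells and 48.1% in DLEU1 vector cells. Both arrays detected 20246 gene names, whose median difference was -0.07, and 45.8% of them had a positive difference. The SD of the difference between replicate spots of a probe, which covers the array alone and not the culture, was 0.11 in the dimmest of 3 brightness groups, 0.06 in the middle group and 0.05 in the brightest. The brightest DLEU1 probe was 6.67-fold higher with the DLEU1 vector (difference 2.74). The other DLEU1 probes, much dimmer and assigned to another transcript of the gene, differed by 0.85 and 0.54. All 9 keratinocyte and squamous markers looked at were detected on both arrays. Of these, 6 were at least 2-fold higher with the DLEU1 vector (KRT5, KRT14, KRT6A, KRT17, CDH1 and DSG3), where 9.18% of the gene names detected on both arrays were. TP63 differed by 0.96, while EPCAM (-0.78) and ITGA6 (-0.23) were lower with the DLEU1 vector. The log2 of the scaled signal summed over the probes of all 9 markers went from 8.62 to 10.56. A set of 167 spots on the DLEU1 vector array had lost signal. Its outer limits were rows 1 to 102 and columns 36 to 40, it did not hold every spot between them, and 0 of the 11 S100 spots belonged to it.

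The S100 genes fell into a group that differed widely and a group that differed by less than 2-fold. Of the 8 genes detected on both arrays, 2 (S100P and S100A7) were higher by 2-fold or more with the DLEU1 vector, where 9.18% of the 20246 gene names detected on both arrays were, and 0 were at least 2-fold lower, where 9.78% of the same 20246 were. S100A8 and S100A9 were detected with the DLEU1 vector only, with a lower bound past 2-fold, which held for 1.02% of all 43317 gene names. The remaining 6 genes had differences of 0.17 to 0.84. Their signals in control vector cells were 2130 to 221000, against 3.66 to 51.4 for S100P, S100A7, S100A8 and S100A9. The 2 groups thus also differed in brightness on the control vector array. All 8 differences of genes detected on both arrays were positive as scaled here, whereas S100A2 and S100A4 turned negative when the arrays were scaled to the spike-in probes. The bounds of S100A8 and S100A9 were positive too, but detection with the DLEU1 vector only all but sets that sign. Among all gene names detected on both arrays, 45.8% were positive. The list was chosen with earlier results of these data known, so the shared sign describes this list only and not S100 genes at large. The median was 0.60 over the 8 genes detected on both arrays, and 0.73 over all 10 with S100A8 and S100A9 at their bounds. In RNA from a whole culture, more cells expressing a gene and more RNA per cell cannot be told apart.

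**Figure D1:**
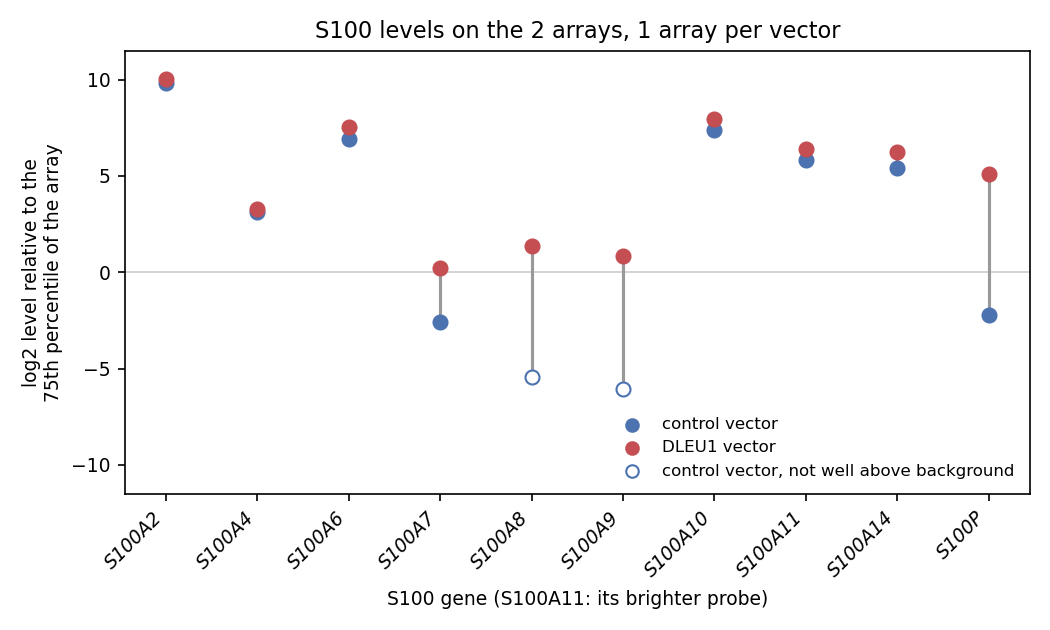
The vertical axis gives the log2 level relative to the 75th percentile of the array for each S100 gene, with 1 point per array joined by a line, and open points are not well above background. The points of S100P lie at -2.24 and 5.11, while those of S100A2 nearly touch at 9.84 and 10.05. Heights are compared within a gene only.

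The probes that carried the wide differences are shown with the DNA they read. The S100P probe lay on chromosome 4 at chr4:6698819-6698878 (hg19, plus strand), and the S100A8 probe at chr1:153362548-153362607 (hg19, minus strand). The first 30 bases of each are printed. The S100A7 and S100A9 probes are printed whole, since they cross an exon junction and so match spliced RNA. The S100A7 probe spans chr1:153430429-153431390 on the minus strand, 60 bases over 962 bases of genome, and the S100A9 probe spans chr1:153330874-153333143 on the plus strand, over 2270 bases.
S100P probe, first 30 bases: ccaaaagtgtttgttggcaattattcccct
S100A8 probe, first 30 bases: aaagccatgaagaaagccacaaagagtagc
S100A7 probe: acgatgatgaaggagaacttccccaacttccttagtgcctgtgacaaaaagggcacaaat
S100A9 probe: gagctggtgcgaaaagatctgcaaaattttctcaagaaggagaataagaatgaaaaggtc

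S100P, a calcium-binding protein found in placenta and in many carcinomas, had the widest measured difference of the 10. Its processed signal was 51.4 in control vector cells and 8160 in DLEU1 vector cells, so the level went from -2.24 to 5.11. That is a difference of 7.35, or 163-fold, and the spot was well above background on both arrays. It ranked 4 among the 20246 gene names by difference. Before background subtraction, the mean pixel of its spot was 78.8 over a local background of 25.0 on the control vector array and 6960 over 24.0 on the DLEU1 vector array. The median pixel was 76.5 and 6720, close to the mean on each array. The S100P spot, in row 27 and column 36, was within those outer limits but was not 1 of the 167 spots with lost signal. Rows 20 to 59 and columns 34 to 42 held 164 spots detected on the control vector array. Before scaling, 1 of these was 8-fold lower and 32 were 2-fold lower on the DLEU1 vector array. Over the whole array, 2752 of the 26279 probes detected on both arrays were at least 2-fold lower before scaling. This is no like comparison, since the 164 spots can include some lost to background on the DLEU1 vector array and the 26279 probes cannot.

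S100A7, or psoriasin, an antimicrobial protein of keratinocytes, was dim on both arrays but detected on each. Its signal was 40.6 in control vector cells and 276 in DLEU1 vector cells, and the level went from -2.58 to 0.23. The difference of 2.81, or 6.99-fold, was wider than the spot SD of 0.11 and ranked 145 of 20246. The mean pixel of the spot went from 73.2 to 310. S100A7A, a close relative of S100A7 in the same stretch of chromosome, had 2 probes of its own, and neither was well above background on either array.

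S100A8 and S100A9 pair into calprotectin, a secreted complex that withholds metal ions from microbes and is abundant in neutrophils as well as in inflamed keratinocytes. In control vector cells the S100A8 signal was 5.64, not well above background, and in DLEU1 vector cells it was 606. Set against the lowest detected signal of 14.2 on the control vector array, each after scaling, S100A8 was at least 43.8-fold higher with the DLEU1 vector. S100A9 went from a signal of 3.66, again not well above background, to 430. It was at least 31.1-fold higher by the same bound. Both genes were therefore read as present on 1 array only. The size of the bounds depends on the processing. In log2 they were 5.45 for S100A8 and 4.96 for S100A9 here, but 3.23 and 2.59 with the normexp background correction. The mean pixel brightness went from 38.5 to 663 for S100A8 and from 34.5 to 413 for S100A9.

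Since neutrophils and monocytes also make S100A8 and S100A9, myeloid markers were read beside them. Of 10 markers, 7 had a probe under the name looked for. MPO and ELANE, which encode granule enzymes of neutrophils, were not well above background on either array. The other 5 were detected on both, with differences of 0.45 for PTPRC, -1.60 for CD14, -0.65 for ITGAM, 0.30 for CSF3R and 1.86 for CSF1R. The log2 of the scaled signal summed over all probes of the 7 genes was 2.44 in control vector cells and 4.04 in DLEU1 vector cells. Most of this sum was CSF1R, which by itself had levels of 2.07 and 3.93. In this list CSF1R passed 2-fold upward and CD14 downward. Of 7 fibroblast and endothelial markers, COL3A1, DCN and PECAM1 were not well above background on either array, and the probes of the list summed to 1.12 and 4.66 on the same scale. In that list COL1A1 differed by 3.99, with levels of 0.47 and 4.47. VWF differed by 3.70 in its brighter probe and -0.07 in another, against -0.33 for PDGFRB and -0.59 for CDH5. The part of other cell types in the S100 values was not tested.

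**Figure D2:**
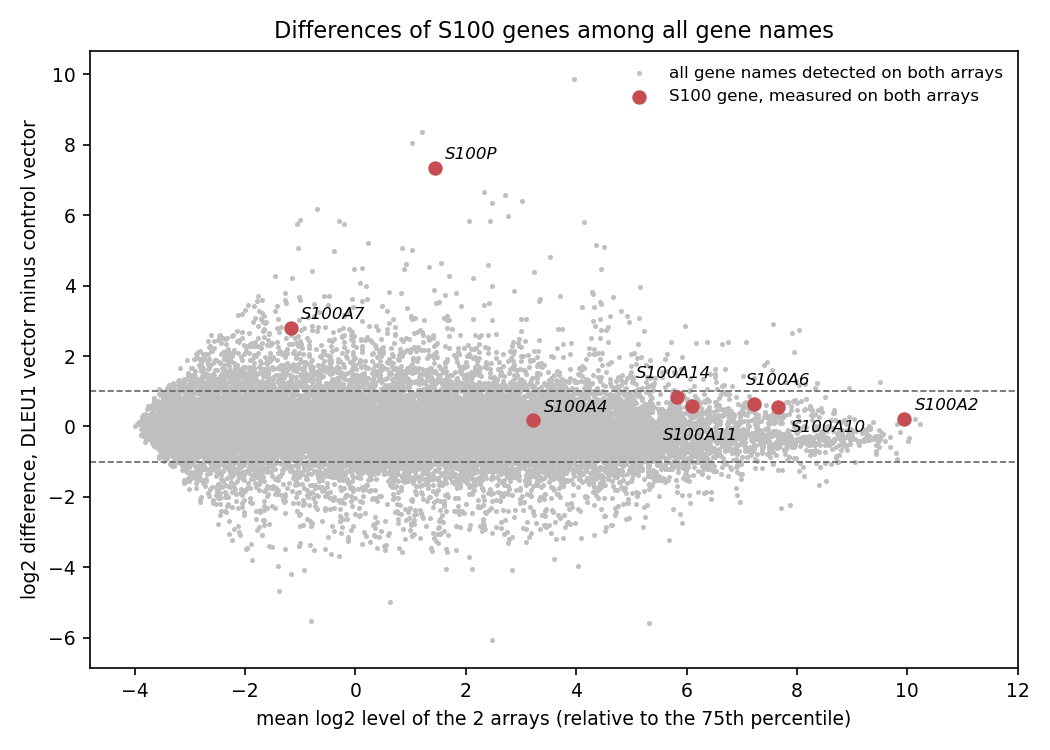
Each grey point is 1 of the 20246 gene names detected on both arrays, with its mean log2 level on the horizontal axis and its log2 difference (DLEU1 vector minus control vector) on the vertical axis. The 8 S100 genes measured on both arrays are in red and the dashed lines mark 2-fold. S100P (7.35) and S100A7 (2.81) lie above the upper line, and the other 6 lie between the lines, from 0.17 to 0.84.

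S100A14, an S100 protein of epithelial cells, had the widest difference among the genes under 2-fold. Its signal went from 10300 to 17900, a difference of 0.84 or 1.79-fold, which ranked 2438 of 20246. The value passed 2-fold under 3 other ways of processing, with 1.06 after quantile normalization, 1.10 after loess and 1.01 with the local median taken off. S100A6, or calcyclin, a protein of proliferating cells, had signals of 29000 and 43800, a difference of 0.63 or 1.55-fold. Its probe also crossed an exon junction (chr1:153507255-153507685, hg19, minus strand).

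S100A10, the annexin A2 partner also known as p11, had a signal of 40300 in control vector cells and 58100 in DLEU1 vector cells. The difference was 0.57, or 1.48-fold. S100A11, or calgizzarin, which binds annexin A1 and takes part in keratinocyte growth control, was read by both of its probes. Its brighter probe gave 13700 and 19800, a difference of 0.57, and its dimmer probe gave 9840 and 13200, a difference of 0.46. The probes of S100A11 adjoin each other in the gene, at chr1:152005160-152005219 and chr1:152005219-152005278 (hg19, minus strand), and both were higher with the DLEU1 vector. The dimmer one lay near the lost signal, where the median difference of the detected spots around it was -0.55, against -0.05 around the brighter one.

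S100A2, a nuclear S100 protein of basal keratinocytes, and S100A4, or metastasin, a binder of nonmuscle myosin linked to cell motility, had the narrowest differences. S100A2 had signals of 221000 and 251000, a difference of 0.22 or 1.16-fold. S100A4 had signals of 2130 and 2340, a difference of 0.17 or 1.12-fold. Both exceeded the spot SD, 0.05 and 0.06 at their brightness, but a change of scaling to the spike-in probes turned them to -0.19 and -0.23. No direction is therefore given for either gene.

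The positions of the genes were set beside their differences. On chromosome 1 (hg19) the probes from S100A9 to S100A7, in chr1:153330874-153431390, belonged to 6 S100 genes and 0 other gene names. In this stretch S100A7 was 6.99-fold higher, and S100A9, S100A8 and S100A12 were detected with the DLEU1 vector only, while S100A7A and S100A7L2 were not well above background on either array. S100A12, a further protein of granulocytes that is no gene of the list, had 2 probes, with signals of 3.12 and 3.01 in control vector cells and 46.3 and 23.3 in DLEU1 vector cells, at least 3.35-fold and 1.68-fold higher. The next stretch, from S100A6 to S100A1 in chr1:153507255-153604335, held 9 S100 genes. Of these, 8 were detected on both arrays with differences from -0.28 to 0.84, none past 2-fold, and S100A1 was not well above background on either. S100A10 and S100A11, at the other end, differed by 0.57 each. Between S100A11 and S100A9 lay 59 gene names that are not S100 genes, of which 27 were detected on both arrays. Of those 27, 18 were higher by 2-fold or more and 0 were lower by as much, and 19 of the 59 were detected with the DLEU1 vector only. Over the whole array 9.18% and 9.78% of the gene names detected on both arrays passed 2-fold upward and downward, and 1244 of 43317 gene names were detected with the DLEU1 vector only. No test was made of this order.

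**Figure D3:**
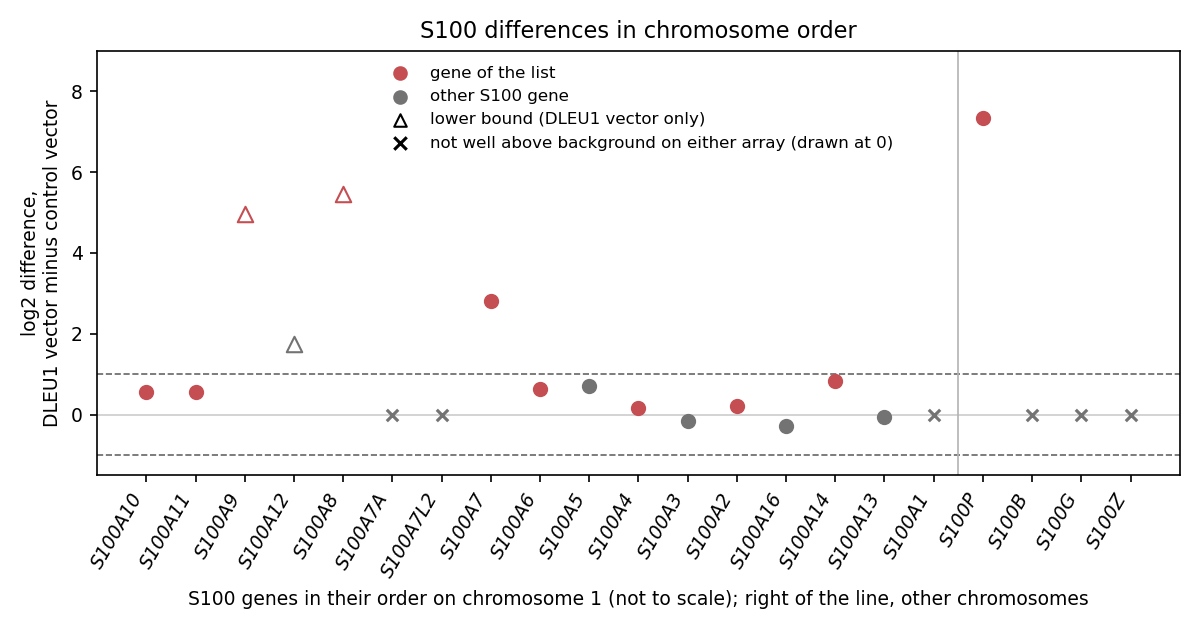
The 21 S100 genes with a probe are placed in their order along chromosome 1, with other chromosomes right of the line, and the vertical axis is the log2 difference (DLEU1 vector minus control vector). Triangles are lower bounds and crosses genes not well above background on either array. The triangles of S100A9 (4.96), S100A12 (1.74) and S100A8 (5.45) and the point of S100A7 (2.81) lie side by side, and every point from S100A6 to S100A13 lies within 2-fold.

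The 11 other S100 genes on the array did not all share the positive sign. Of these, 4 were detected on both arrays, with S100A5 at 0.71, S100A13 at -0.06, S100A3 at -0.16 and S100A16 at -0.28. Their median difference was -0.11, near the -0.07 of all gene names. Besides S100A1, S100A7A and S100A7L2, the genes S100B, S100G and S100Z on other chromosomes were not well above background on either array.

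The promoters of the 4 genes past 2-fold are shown because each held the letters TATAAA close to its start. The sequences are from RefSeq on GRCh38.p14, 250 bases up to the transcription start, read 5′ to 3′ on the strand of the gene, with TATAAA in capitals. The windows are chr4:6693628-6693877 for S100P (plus strand), chr1:153460652-153460901 for S100A7 (minus strand), chr1:153391074-153391323 for S100A8 (minus strand) and chr1:153357604-153357853 for S100A9 (plus strand). S100A4 (chr1:153545807-153546056, minus strand) is added as a gene under 2-fold that held it too.
S100P promoter: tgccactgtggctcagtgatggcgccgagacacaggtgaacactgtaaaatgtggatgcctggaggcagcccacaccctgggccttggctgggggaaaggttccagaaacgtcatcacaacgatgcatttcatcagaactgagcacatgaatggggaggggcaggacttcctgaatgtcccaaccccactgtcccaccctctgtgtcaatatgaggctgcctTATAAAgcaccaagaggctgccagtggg
S100A7 promoter: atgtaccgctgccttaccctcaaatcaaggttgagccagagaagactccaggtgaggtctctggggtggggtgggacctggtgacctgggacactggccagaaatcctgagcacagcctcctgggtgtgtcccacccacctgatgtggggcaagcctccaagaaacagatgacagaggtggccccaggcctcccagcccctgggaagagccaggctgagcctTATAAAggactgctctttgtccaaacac
S100A8 promoter: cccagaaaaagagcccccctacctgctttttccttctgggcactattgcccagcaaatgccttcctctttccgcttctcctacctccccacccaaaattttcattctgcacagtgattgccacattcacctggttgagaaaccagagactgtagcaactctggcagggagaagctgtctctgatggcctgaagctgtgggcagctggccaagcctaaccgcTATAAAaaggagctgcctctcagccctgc
S100A9 promoter: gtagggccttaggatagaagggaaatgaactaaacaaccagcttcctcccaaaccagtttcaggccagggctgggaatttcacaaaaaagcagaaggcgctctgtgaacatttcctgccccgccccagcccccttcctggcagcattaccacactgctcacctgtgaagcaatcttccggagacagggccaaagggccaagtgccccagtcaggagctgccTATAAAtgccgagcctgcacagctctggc
S100A4 promoter: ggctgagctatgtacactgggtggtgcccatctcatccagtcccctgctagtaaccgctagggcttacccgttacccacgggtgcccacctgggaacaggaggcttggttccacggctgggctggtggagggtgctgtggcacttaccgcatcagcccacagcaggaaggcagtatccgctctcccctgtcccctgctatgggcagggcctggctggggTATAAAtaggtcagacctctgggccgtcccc

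The RefSeq promoters of all 10 genes were searched on both strands for 4 motifs, over 13 windows, as S100A2 has 2 start sites and S100A8 has 3. TATAAA, the core of the TATA box, began 28 bases before the start in S100P and S100A7, 29 bases before it in S100A8 and S100A9, and 31 bases before it in S100A4. In 1 of the other S100A8 windows the same letters stood 126 bases before a start, and in the remaining one they were absent. The motif was thus in 5 of 10 genes, all 4 past 2-fold and 1 of the 6 under 2-fold. This split holds for the exact letters only. The windows of S100A14 and S100A6, both under 2-fold, held the near match TATAAG close to the start, and near matches were not counted over all promoters. Over 35116 promoters of this length, 10.7% held TATAAA on either strand, against 6 of the 13 windows here. Of the same promoters, 2.3% held it on the strand of the gene 20 to 40 bases before the start, a range chosen after the S100 positions were seen. These shares count promoters, whereas the 5 of 10 counts genes. The AP-1 letters TGANTCA were in 6.57% of all promoters and in S100A2 alone here, 52 bases before 1 of its starts. The STAT dimer letters TTCNNNGAA (6.57% of all promoters) and the interferon-response core GAAANNGAAA (3.02%) were in 0 of the 13 windows, which says only that these letters are not in these 250 bases. A match describes the sequence and is neither a bound site nor a cause of a difference.

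Partners and receptors of S100 proteins were read from a list of 14 genes. Of these, 13 were detected on both arrays, with 0 higher by 2-fold or more (9.18% of the gene names detected on both arrays) and 1 lower by as much (9.78%), counts close to those shares, with 4 positive, 9 negative and a median of -0.15. The gene past 2-fold was CACYBP, the calcyclin-binding protein and partner of S100A6, at -1.47, with its 3 probes between -1.48 and -1.09. The highest value was that of AHNAK, a scaffold that binds annexin A2 with S100A10, at 0.77 in its brightest probe and up to 1.24 among its 3 probes.

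Apart from CACYBP, the direct partners of the described genes stayed under 2-fold in their brightest probe. ANXA2, the partner of S100A10, differed by 0.47, beside 0.57 for S100A10 itself. ANXA1, bound by S100A11, differed by -0.25, and MYH9, the myosin heavy chain bound by S100A4, by -0.14. Among proteins that bind S100P, the membrane linker EZR differed by -0.51, the scaffold IQGAP1 by 0.28 and the S100P-binding protein S100PBP by -0.15 in its brighter probe and -0.73 in another. The cochaperone SUGT1 and the phosphatase PPP5C, which S100 proteins bind, differed by -0.41 and -0.66. Among receptors for secreted S100A7, S100A8 and S100A9, AGER, the receptor for advanced glycation end products, differed by 0.42, BSG by -0.04 and NPTN by -0.27. TLR4, a further receptor for S100A8 and S100A9, was not well above background on either array.

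The values of the S100 genes were computed again under other scalings, background corrections, filters and spot choices. S100P ranged from 6.03 to 7.46 and S100A7 from 1.80 to 2.92, with both lowest values under the normexp background correction, so both genes were past 2-fold wherever they had a value. The bounds of S100A8 and S100A9 ranged from 3.23 to 5.57 and from 2.59 to 5.07. S100A14 ranged from 0.43 to 1.10, S100A6 from 0.23 to 0.94, S100A10 from 0.16 to 0.89 and S100A11 from 0.17 to 0.84. A minimum signal of 100 on both arrays left out S100P, S100A7, S100A8 and S100A9. Leaving out a wider block of spots around the lost signal removed 2 S100 spots, those of S100P and of the dimmer S100A11 probe.

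**Figure D4:**
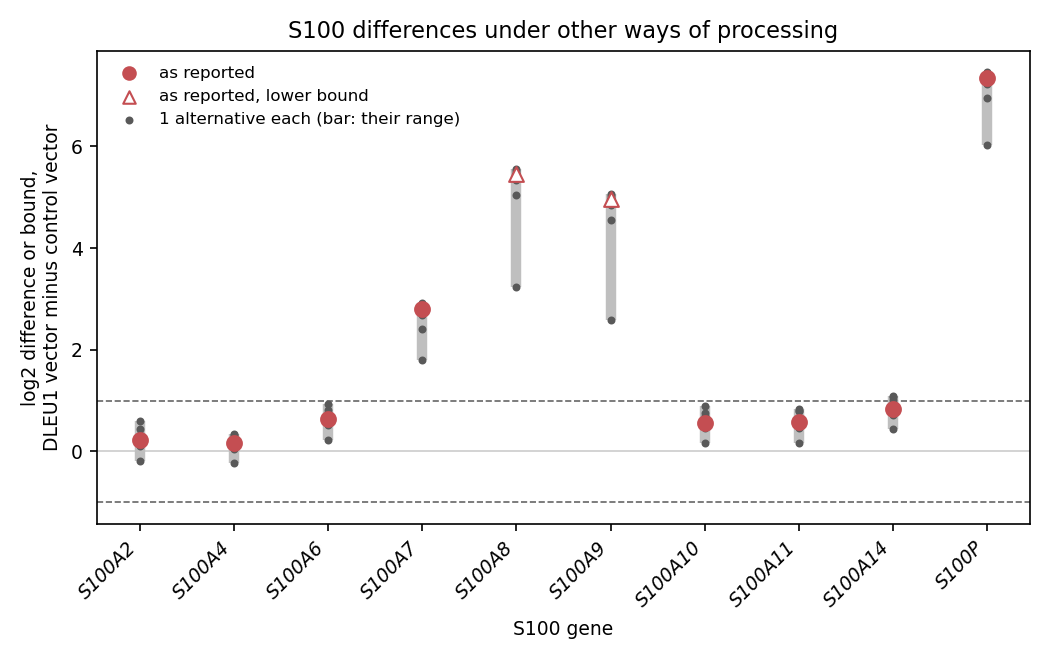
For each S100 gene the red marker is the log2 difference (DLEU1 vector minus control vector) as reported, or its lower bound for S100A8 and S100A9, and each dark point is 1 alternative way of processing, with the bar as their range. The bars of S100P (6.03 to 7.46) and S100A7 (1.80 to 2.92) lie above the dashed 2-fold line, that of S100A14 (0.43 to 1.10) crosses it, and those of S100A2 and S100A4 cross 0.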

How the data were processed

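Each group, as the labels name it, was 1 array. The authors made the deposited scanner intensity values with Agilent Feature Extraction (version 10.7.3.1 in the header), with background subtraction and detrending done by that software, and its flags for each spot were deposited beside them. The methods name GeneSpring without a normalization or threshold for these arrays. The authors' deposited series table holds the same intensity, and its values lay within 0.497% of the scanner files. Probe positions are on hg19.

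Control spots and flagged outlier spots (84 and 103) were left out, and 0 spots were saturated. The log2 signal was averaged over spots and the 75th percentile of all probes subtracted (7.92 and 7.88). A gene took its brightest probe detected on both arrays. For a bound, the dim array took its lowest detected signal (14.2 and 14.3), or the signal of the probe where that was higher. Spot SDs came from 282 probes. Tools were Python 3.11.15, numpy 2.4.6, pandas 2.3.3, R 4.3.3 and limma 3.58.1 (normexp, quantile, loess). The calculation of differences was tested on simulated data. There every probe had the same detection on both arrays, so the bounds were not tested. The number of arrays limits the precision.

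The named genes are all 10 S100 genes, the other S100 genes with a probe, partners and receptors by count, extremes and direct partner, and DLEU1. Marker lists were keratinocyte, myeloid, and fibroblast with endothelial. The S100 genes and lists were chosen with earlier results of these data known. The alternatives were 6 scalings, normexp, the series values, filters on dim or saturated probes, other probe summaries, leaving out the lost signal, local medians, and thresholds of 1.5-fold and 3-fold.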

Additional observations from a re-analysis of the deposited data

How the results depend on the processing

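The S100 genes had 153 values under alternatives, of which 101 stayed within 1 spot SD of the reported value and 52 did not. The 101 are no measure of stability, since several alternatives could move few values or none. 0 spots were saturated, all genes but S100A11 had 1 probe, the series values hold the same intensity, and a filter leaves kept values unchanged. The sign changed in 2, S100A2 (-0.19) and S100A4 (-0.23), both under spike-in scaling. The median over S100 genes detected on both arrays, 0.60 as reported, was 0.49 with median scaling, 0.71 with the percentile of detected probes, 0.81 with quantile normalization, 0.91 with loess, 0.20 with spike-in scaling, 0.77 with the local median taken off and 0.73 with no filter. In the same order without the last, DLEU1 (2.74) was 2.62, 2.85, 2.92, 2.96, 2.33 and 2.91. S100 genes at least 2-fold higher, 2 as reported, were 4 with no filter, 4 at 1.5-fold, 0 at a minimum signal of 100 (also with bounds included) and 1 without the wider block around the lost signal, rows 1 to 110 and columns 34 to 42, an alternative chosen after seeing the data. Over all probes, 2360 were higher and 2571 lower (47.9% higher). The higher count was 1243 with spike-in scaling, 1329 with normexp, 5537 with no filter, 1226 at a minimum signal of 100, 4772 at 1.5-fold and 958 at 3-fold. The lower count was 5715 with spike-in scaling, 1729 with normexp, 1740 at a minimum signal of 100, 5008 with no filter, 5832 at 1.5-fold and 855 at 3-fold. The share of higher calls was 38.1% with median scaling, 57.8% with the percentile of detected probes and 17.9% with spike-in scaling, which shifted the median of all probes by -0.11, 0.11 and -0.40. The cause was not tested. The lowest values or bounds of S100P, S100A7, S100A8 and S100A9 were all those with normexp, which adds an offset to dim signals. No paired analysis was possible because each group had 1 array.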
